A study of Mus musculus with 18 samples.

Results

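Esrrb, Zfp42, Prdm14, Nr0b1, Tbx3, Tcl1, Klf2, Klf4 and Klf5 are 9 genes of the naive pluripotency network, the set of factors that keeps mouse embryonic stem (ES) cells in the state of the early, preimplantation epiblast. They were taken by symbol: for each gene, the probe set that the platform annotation gives to that symbol alone was read, and each of the 9 had exactly 1 such probe set. They are 9 of 19938 genes measured in this way, and no member was lost to a filter. Mouse Gene 1.0 ST arrays (Affymetrix), which measure a transcript with a set of short probes, were hybridised with total RNA of 18 stem cell cultures. The cultures fell into 6 groups of 3 biological replicates, which were differentiated adult cells (129SV), differentiated ES cells (129SV), undifferentiated adult cells of the Stra8-EGFP/Rosa26 background (Stra8 below), undifferentiated adult 129SV cells, undifferentiated ES cells of Stra8 and undifferentiated ES cells of 129SV. By the series title, adult cells here means multipotent stem cells from the adult germline. There was no differentiated group of the Stra8 background, so background and differentiation were never combined, and the Stra8 groups carry the alleles of their name, which the labels do not give for the 129SV groups. The labels give neither the way of differentiation, nor the use of feeder cells, nor the number of lines behind the replicates, so the p-values measure the spread between these cultures, which may be technical in part.

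In the undifferentiated groups, the general factors Pou5f1, Sox2 and Nanog had group means between 11.43 and 12.60 on the log2 scale, while in differentiated adult and differentiated ES cells Pou5f1 was at 10.09 and 9.46, Sox2 at 9.91 and 9.47 and Nanog at 11.40 and 10.92. Each was higher in every undifferentiated group than in both differentiated groups, Nanog narrowly so, at 11.54 in adult Stra8 cells. Over all genes, the mean Pearson r between arrays of a group lay between 0.993 and 0.998, and the array medians lay between 7.22 and 7.38. Replicate 3 of the differentiated ES cells stood apart from its 2 partners, with r of 0.992 and 0.991 to them, against 0.997 between them, and results that rest on it are named with it. All levels are log2 signals, all changes are differences of such levels, and a gene was called higher or lower at an adjusted p under 0.05 in limma, with Benjamini-Hochberg adjustment over the 19938 genes. Levels of different probe sets were not set against each other, since the probes differ in brightness. Neighbours in the order of a gene's levels were compared in the same fit. In pairs of groups that are compared only in this way, the share of all genes called was 56.5% for differentiated ES against adult Stra8, 57.3% for differentiated ES against ES Stra8 and 56.3% for differentiated ES against adult 129SV cells. It was 53.5%, 52.9% and 51.9% for differentiated adult cells against adult Stra8, ES Stra8 and ES 129SV cells, 37.7% for adult Stra8 against ES 129SV and 50% for ES Stra8 against adult 129SV cells.

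The network is fed from outside and held together from within. Leukaemia inhibitory factor (LIF) acts through its receptor, Lifr, and Jak kinases on Stat3, which turns on Klf4, while the phosphatidylinositol-3-kinase and Akt branch supports Tbx3. Esrrb, an orphan nuclear receptor, and Klf2, Klf4 and Klf5, zinc-finger proteins that bind GC-rich sites, maintain the core factors Pou5f1, Sox2 and Nanog. Nr0b1 (Dax1) is an orphan receptor without the usual DNA-binding domain that binds Pou5f1 and Esrrb. Prdm14 guards the naive state by holding down de novo DNA methyltransferases and fibroblast growth factor signalling. Zfp42 (Rex1) is the classical marker lost when ES cells leave the naive state, and Tcl1 is not a transcription factor but a cofactor of Akt that supports self-renewal.

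The genes lie on 7 chromosomes. In GRCm38.p6, the assembly of the RefSeq gene table used for names, Esrrb spans 86361117 to 86521628 and Tcl1 105216753 to 105222737 on chromosome 12, Zfp42 43295067 to 43307009 and Klf2 72319062 to 72321654 on chromosome 8, and Nr0b1 86191775 to 86195947 on chromosome X. Klf4 spans 55527137 to 55532475 on chromosome 4, Klf5 99298691 to 99313412 on chromosome 14, Tbx3 119670534 to 119684724 on chromosome 5 and Prdm14 13113428 to 13127163 on chromosome 1. The RefSeq promoter table held 6 of the 9, without entries for Prdm14, Tbx3 and Klf5. The 250 bases before the annotated start are printed for 4 of them, 5′ to 3′ on the strand of the gene. Zfp42 is shown because it held the most motif matches, Nr0b1 because it changed most on differentiation, and Klf2 and Klf4 because these relatives went different ways. Capitals mark the matches to the motifs named after them.
Zfp42 (chr8:43307010-43307259, minus strand): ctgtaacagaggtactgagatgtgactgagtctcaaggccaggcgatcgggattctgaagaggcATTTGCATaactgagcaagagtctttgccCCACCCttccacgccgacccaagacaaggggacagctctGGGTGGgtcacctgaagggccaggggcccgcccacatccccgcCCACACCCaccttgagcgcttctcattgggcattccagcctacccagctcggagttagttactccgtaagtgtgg
Nr0b1 (chrX:86191525-86191774, plus strand): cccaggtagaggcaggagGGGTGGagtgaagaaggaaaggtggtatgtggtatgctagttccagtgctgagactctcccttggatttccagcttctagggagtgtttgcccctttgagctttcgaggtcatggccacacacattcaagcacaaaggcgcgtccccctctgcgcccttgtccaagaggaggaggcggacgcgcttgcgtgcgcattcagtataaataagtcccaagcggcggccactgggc
Klf2 (chr8:72318812-72319061, plus strand): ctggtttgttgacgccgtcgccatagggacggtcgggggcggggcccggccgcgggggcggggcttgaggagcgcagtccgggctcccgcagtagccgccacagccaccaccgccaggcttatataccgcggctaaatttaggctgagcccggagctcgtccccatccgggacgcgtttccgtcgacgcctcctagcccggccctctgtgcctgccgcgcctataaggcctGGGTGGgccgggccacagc
Klf4 (chr4:55532476-55532725, minus strand): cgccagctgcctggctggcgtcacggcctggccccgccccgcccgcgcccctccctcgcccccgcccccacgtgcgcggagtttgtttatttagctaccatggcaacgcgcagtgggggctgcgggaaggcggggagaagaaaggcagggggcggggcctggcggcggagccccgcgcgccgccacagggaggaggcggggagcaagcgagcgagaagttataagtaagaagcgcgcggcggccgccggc

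5 motifs were searched on both strands. They were TCAAGGTCA (Esrrb type), CCACCC and GGGTGTGG (Klf type), ATGCAAAT (octamer, the Pou5f1 type) and TTCCNGGAA (Stat3 type), and no match overlapped another in the printed sequences. The Zfp42 window held an octamer on the minus strand at bases 65 to 72, counted from the 5′ end of the printed run, CCACCC at bases 94 to 99 and, on the minus strand, at 133 to 138, and GGGTGTGG on the minus strand at 176 to 183. Nr0b1 held 1 match to CCACCC, on the minus strand at bases 19 to 24, and Klf2 held 1, on the minus strand at 232 to 237. The Klf4 window held no match to any of the 5. It had 74.0% G and C with 32 CpG dinucleotides, next to 71.2% and 29 for Klf2, 58.4% and 9 for Zfp42 and 57.2% and 11 for Nr0b1. Over the 6 members with an entry, CCACCC was found in 5, GGGTGTGG in 1 and the octamer in 1, and the Esrrb and Stat3 types in 0. Among 32536 promoter windows of that length, CCACCC was found in 28.1%, GGGTGTGG in 3.2%, the octamer in 1.62%, the Stat3 type in 0.919% and the Esrrb type in 0.375%. The matches are letters in a window and show no binding.

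Nr0b1 had the widest range of the 9, with group means spanning 4.05. Its signals were 8.72, 8.69 and 8.81 in differentiated adult cells and 8.17, 8.08 and 8.13 in differentiated ES cells. Adult Stra8 cells gave 11.65, 11.67 and 11.63 and adult 129SV cells 10.88, 11.04 and 10.99, against 12.16, 12.18 and 12.19 in ES Stra8 and 12.13, 12.22 and 12.13 in ES 129SV cells. The 2 ES groups overlapped at the top and were 0.02 apart (adjusted p = 0.845, limma), and below them every neighbouring pair of groups differed without overlap, in the order adult Stra8, adult 129SV, differentiated adult, differentiated ES. Nr0b1 was thus lower in adult than in ES cultures of either background, while its ES levels overlapped between backgrounds.

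Esrrb spanned 3.33. Its signals were 8.77, 9.01 and 8.93 in differentiated adult and 8.43, 8.25 and 8.56 in differentiated ES cells, 11.28, 11.31 and 11.22 in adult Stra8 and 10.60, 10.49 and 10.66 in adult 129SV cells. In ES cells they were 11.75, 11.70 and 11.76 on the Stra8 and 10.72, 10.76 and 10.57 on the 129SV background. Both Stra8 groups lay above both 129SV groups with no overlap. The step from ES 129SV to adult 129SV, 0.10, was the only step in the order that did not pass (adjusted p = 0.347, limma). Esrrb therefore ordered the undifferentiated cultures by background first, whereas Nr0b1 ordered them by origin.

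Klf2, a Krüppel-like factor also known from endothelium, spanned 2.57. It gave 9.38, 9.34 and 9.42 in differentiated adult and 8.39, 8.37 and 8.67 in differentiated ES cells. It gave 10.89, 10.94 and 10.86 in adult Stra8 and 10.44, 10.43 and 10.50 in adult 129SV cells, against 11.07, 11.02 and 11.07 in ES Stra8 and 10.53, 10.46 and 10.56 in ES 129SV cells. Within each background the adult and ES levels were not called different (0.15 apart on Stra8, adjusted p = 0.115, and 0.06 on 129SV, adjusted p = 0.495, limma), while the Stra8 pair lay above the 129SV pair. The higher replicate of the differentiated ES cells, 8.67, was replicate 3.

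Klf4, the member placed directly behind Stat3, was the flattest of the 9, with group means spanning 0.40. It gave 9.98, 10.06 and 10.05 in differentiated adult and 9.83, 9.80 and 9.99 in differentiated ES cells. The undifferentiated signals were 9.59, 9.63 and 9.66 in adult Stra8, 9.66, 9.67 and 9.78 in adult 129SV, 9.98, 9.96 and 10.10 in ES Stra8 and 9.86, 9.94 and 9.82 in ES 129SV cells. The only step in this order that differed was that from ES 129SV down to adult 129SV (0.17, adjusted p = 0.0325, limma). Undifferentiated adult cells of both backgrounds were at the bottom, and the differentiated adult cells were at the top with ES Stra8, 0.01 apart (adjusted p = 0.885).

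Klf5, also known from epithelia and from trophectoderm, spanned 0.93, all of it between undifferentiated groups. The signals were 11.86, 11.78 and 11.68 in differentiated adult and 12.21, 12.22 and 12.12 in differentiated ES cells. The undifferentiated ones were 12.38, 12.33 and 12.38 in adult Stra8, 11.46, 11.44 and 11.40 in adult 129SV, 12.29, 12.20 and 12.25 in ES Stra8 and 12.12, 12.08 and 12.17 in ES 129SV cells. Among the 4 upper groups no neighbours were called different, and the differentiated adult and adult 129SV groups followed, each below the group before it with no overlap. The lowest Klf5 level was therefore in an undifferentiated culture.

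Tbx3, a T-box repressor downstream of Akt, spanned 0.87. It gave 9.48, 9.51 and 9.49 in differentiated adult and 9.76, 9.68 and 9.86 in differentiated ES cells. It gave 10.29, 10.16 and 10.18 in adult Stra8 and 9.66, 9.61 and 9.56 in adult 129SV cells, against 10.35, 10.27 and 10.39 in ES Stra8 and 10.41, 10.37 and 10.31 in ES 129SV cells. At the top, ES 129SV, ES Stra8 and adult Stra8 followed each other with no step called. Adult Stra8 then lay 0.44 above the differentiated ES cells (adjusted p = 4.53e-06, limma), with no overlap. The undifferentiated adult 129SV cells lay below the differentiated ES cells (by 0.15, adjusted p = 0.0332, limma) and 0.12 above the differentiated adult cells (adjusted p = 0.0982, not called).

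Tcl1 spanned 2.66. Its signals were 7.84, 8.10 and 8.16 in differentiated adult and 7.92, 7.92 and 7.87 in differentiated ES cells, which overlapped (0.13 apart, adjusted p = 0.194, limma). The undifferentiated signals were 9.83, 9.77 and 9.83 in adult Stra8, 9.54, 9.66 and 9.67 in adult 129SV, 10.49, 10.61 and 10.59 in ES Stra8 and 9.37, 9.39 and 9.26 in ES 129SV cells. Here the 2 ES groups were the extremes of the undifferentiated cultures, with both adult groups between them.

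Zfp42 spanned 2.40. The differentiated adult cells were uneven, at 9.48, 9.26 and 8.63, and replicate 3 lay below the other 2, while the differentiated ES cells gave 8.47, 8.42 and 8.13. The undifferentiated signals were 10.04, 10.11 and 10.10 in adult Stra8, 10.57, 10.47 and 10.50 in adult 129SV, 10.82, 10.73 and 10.66 in ES Stra8 and 10.19, 10.11 and 10.23 in ES 129SV cells. No neighbouring pair among these 4 groups was called different in the limma fit, which uses 1 spread for all groups and so takes in the SD of 0.44 of the differentiated adult cells, against SDs of 0.041 to 0.081 in the undifferentiated groups.

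Prdm14 spanned 1.22. The signals were 7.46, 7.36 and 7.39 in differentiated adult and 7.19, 7.24 and 7.14 in differentiated ES cells. The undifferentiated ones were 7.66, 7.57 and 7.45 in adult Stra8, 7.79, 7.86 and 7.82 in adult 129SV, 8.43, 8.37 and 8.44 in ES Stra8 and 7.82, 7.67 and 7.66 in ES 129SV cells. ES Stra8 stood alone at the top, 0.59 above the next group (adjusted p = 5.88e-07, limma). The lowest adult Stra8 array overlapped the differentiated adult arrays, although the group means differed by 0.15 (adjusted p = 0.0446).

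**Figure D1:**
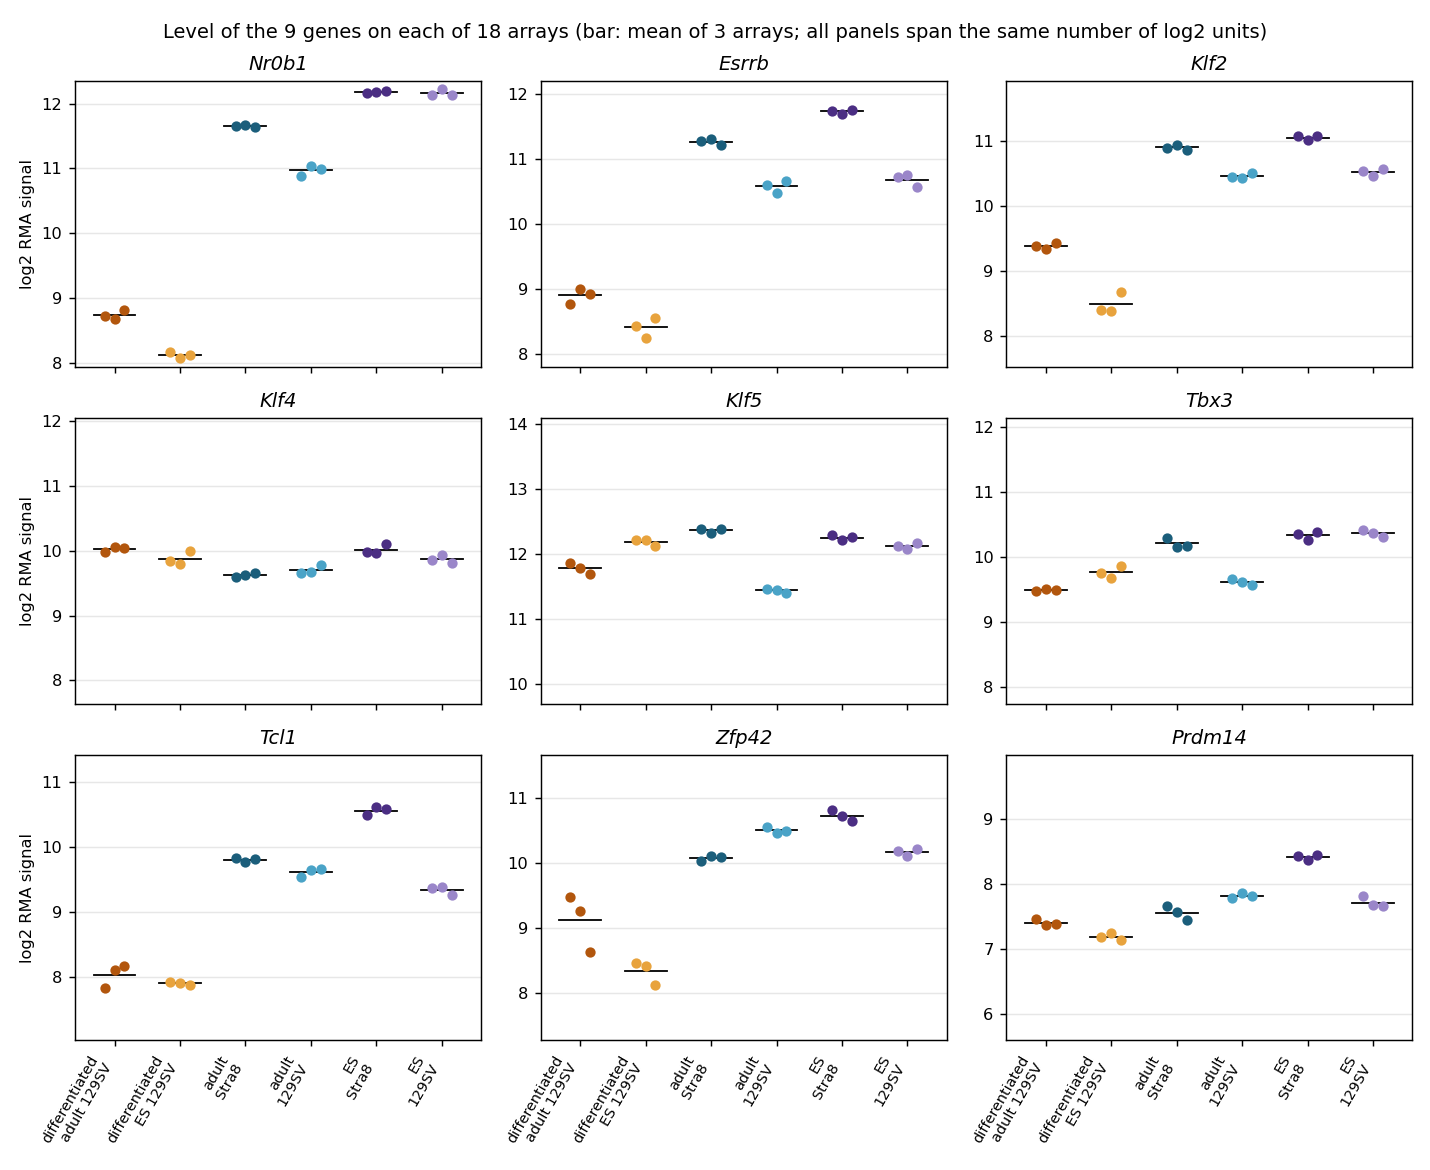
Log2 RMA signal (vertical axis, the same span in each panel) of the 9 genes on each of 18 arrays, by group along the horizontal axis. Points are arrays and bars the mean of 3. Nr0b1, Esrrb, Klf2, Tcl1 and Zfp42 drop in both differentiated groups at the left of each panel, the group means of Klf4 stay within 0.40, and Klf5 and Tbx3 are low in undifferentiated adult 129SV cells.

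The first question of the design was what differentiation did to these genes in cells of each origin. Nr0b1, Esrrb, Klf2, Tcl1, Zfp42 and Prdm14 fell in both. Klf4 and Klf5 fell in neither, and rose in differentiated adult cells. In differentiated against undifferentiated adult cells, 6 members fell and 2 rose, where 59.7% of all genes were called, 32.2% as lower and 27.5% as higher. In differentiated against undifferentiated ES cells, 7 fell and 0 rose, where 55.2% of all genes were called, 27.3% as lower and 27.9% as higher. The median change of the 9 was -1.08 in adult cells, where that of all genes was -0.08, and -1.44 in ES cells, where it was 0.05. With bulk RNA, fewer cells that express a gene and less RNA per cell cannot be told apart.

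Nr0b1 was 4.7-fold lower in differentiated than in undifferentiated adult cells (log2 change -2.23, SE 0.054, adjusted p = 4.71e-15, limma). In ES cells it was 16.4-fold lower (-4.03, SE 0.054, adjusted p = 3.6e-18). Esrrb changed by -1.68 in adult and -2.27 in ES cells, Klf2 by -1.08 and -2.04, and Zfp42 by -1.38 and -1.84. Tcl1 changed by -1.59 in adult and -1.44 in ES cells and Prdm14 by -0.42 and -0.52, with adjusted p between 1.37e-13 and 1.47e-05 for these 5 genes. On every one of these 12 changes, all 3 differentiated arrays lay below all 3 undifferentiated ones, which was so for 34.1% of all genes in adult and 28.3% in ES cells.

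The Klf genes parted ways. Klf2 fell, as given above. Klf4 was 1.25-fold higher in differentiated than in undifferentiated adult cells (0.33, SE 0.062, adjusted p = 0.0002, limma), and Klf5 1.27-fold higher (0.34, SE 0.054, adjusted p = 3.5e-05). In ES cells Klf4 differed by 0.005 (95% confidence interval -0.13 to 0.14) and Klf5 by 0.06 (-0.06 to 0.17), and neither passed. The signs of these 2 values depend on the scaling: with each array centred on its median, which moves the median change of all genes in ES cells from 0.05 to -0.08, Klf4 was at -0.12 and Klf5 at -0.07, not called, and after quantile normalisation Klf5 was at 0.17 and was called (adjusted p = 0.00769).

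Tbx3 was at -0.12 in differentiated minus undifferentiated adult cells (SE 0.058, adjusted p = 0.0982, limma), and fell in ES cells (-0.60, SE 0.058, adjusted p = 1.27e-07). All 3 differentiated adult arrays lay below the undifferentiated ones, which was so for 34.1% of all genes. The change in adult cells was called with centred arrays (-0.22, adjusted p = 0.00404) and after quantile normalisation (-0.24, adjusted p = 0.00351).

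The response itself was then compared between the origins, as the change in adult minus the change in ES cells. 6 members differed, all with the higher value in adult cells, where 45.7% of all genes were called, 24.2% as higher and 21.5% as lower. The difference was 1.80 for Nr0b1 (SE 0.076, adjusted p = 1.92e-11, limma), 0.96 for Klf2 (5.11e-07), 0.59 for Esrrb (0.000491) and 0.48 for Tbx3 (0.00016), with the adjusted p in parentheses. Nr0b1, Klf2 and Esrrb fell less in adult than in ES cells. For Klf4 it was 0.32 (adjusted p = 0.00639) and for Klf5 0.28 (0.00633), the Klf4 call being lost after quantile normalisation (0.18, adjusted p = 0.156). Tcl1 (-0.15, 95% confidence interval -0.37 to 0.08) and Prdm14 (0.10, -0.08 to 0.29) did not pass. Zfp42 did not pass either (0.45, adjusted p = 0.0927), but did so without replicate 3 of the differentiated adult cells (0.70, adjusted p = 0.000336).

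The 2 ends of this difference can be read off the levels. Nr0b1 was -1.19 in undifferentiated adult minus ES cells and 0.62 in differentiated adult minus ES cells, so the smaller fall in adult cells joined a lower start and a higher end. Klf2 had nearly the same start (-0.06) and a higher end (0.90), and so had Esrrb (-0.10 and 0.49). For Tbx3 the start was lower (-0.75) and the end also lower (-0.27). These values share arrays with the responses and are the same data in another arrangement.

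**Figure D2:**
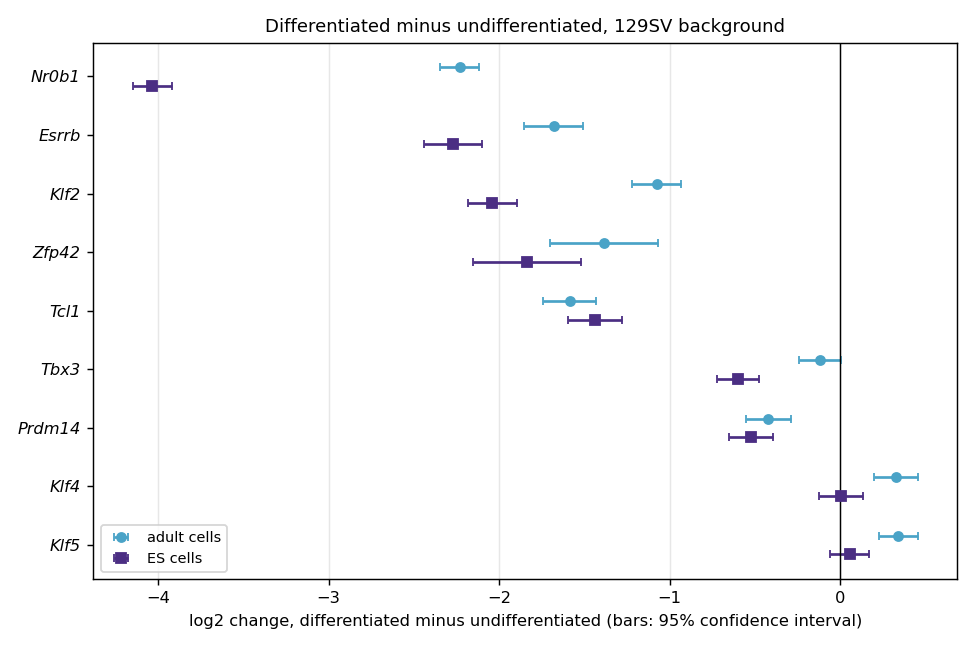
Log2 change of each gene, differentiated minus undifferentiated 129SV cells (horizontal axis), for adult cells (circles) and ES cells (squares), with 95% confidence intervals from limma. Nr0b1, at -2.23 in adult and -4.03 in ES cells, and Klf2, at -1.08 and -2.04, lie farthest apart, and Klf4 and Klf5 lie at or above 0 (in ES cells below 0, at -0.12 and -0.07, when arrays are centred on their medians).

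Differentiated adult cells were also compared with differentiated ES cells. Here 5 members were higher and 2 lower in differentiated adult cells, where 32.2% of all genes were called, 19.4% as higher and 12.8% as lower. The median difference was 0.21 for the 9 and -0.03 for all genes. Klf2 was 1.87-fold higher (0.90, adjusted p = 3.94e-08, limma), Zfp42 1.73-fold (0.79, 0.000594), Nr0b1 1.53-fold (0.62, 2.16e-07) and Esrrb 1.41-fold (0.49, 0.000164). Klf5 was lower (-0.41, adjusted p = 2.04e-05). The values so far are from the fit without pairing. As an alternative in this comparison, the replicate numbers were taken to pair the arrays. The labels do not give such a pairing, and only 1 of 3 arrays correlated best with its own number. With the number as a block in a fit of these 6 arrays 5 members stayed called, where 21.3% of genes were. The 2 others were Prdm14, at 0.21, and Tbx3, at -0.27. In the fit of all arrays without the block their adjusted p was 0.0142 and 0.00176 (limma). In the fit of these 6 arrays with the block it was 0.107 and 0.0576. Both calls were also lost in a fit of these 6 arrays without the block. A block in the fit of all arrays left the number of members called unchanged. The losses thus went with the smaller fit, with or without the block. Prdm14 was also not called without replicate 1 of the differentiated adult cells (adjusted p = 0.0599). Klf4 (0.15, adjusted p = 0.0718) was called without replicate 3 of the differentiated ES cells (0.21, adjusted p = 0.0133), and Tcl1 (0.13, adjusted p = 0.194) without replicate 1 of the differentiated adult cells (0.23, adjusted p = 0.0125).

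The next question was whether adult stem cells hold this network at the level of ES cells of the same background. Nr0b1 and Klf4 were lower in adult cells on both backgrounds. Prdm14, Tcl1, Zfp42 and Esrrb were lower on Stra8, and Tbx3 and Klf5 on 129SV. In adult Stra8 against ES Stra8 cells, 6 members were lower and 0 higher, where 28.3% of all genes were called, 15.1% as lower and 13.2% as higher. In adult 129SV against ES 129SV cells, 4 were lower and 1 higher, where 46.1% of all genes were called, 23.1% as lower and 23% as higher. The median difference of the 9 was -0.47 on Stra8, with 0.00 for all genes, and -0.10 on 129SV, with 0.06 for all genes.

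Nr0b1 was lower in adult cells on both backgrounds, 1.44-fold on Stra8 (-0.52, SE 0.054, adjusted p = 1.7e-06, limma) and 2.28-fold on 129SV (-1.19, SE 0.054, adjusted p = 2.86e-11). Klf4 was too, by 1.31-fold on Stra8 (-0.39, adjusted p = 0.000153) and 1.12-fold on 129SV (-0.17, 0.0325). The Klf4 call on 129SV is weak: it was lost without replicate 1 (adjusted p = 0.102) or 2 (0.0952) of adult 129SV, without replicate 1 (0.0629) or 2 (0.13) of ES 129SV, with the compared groups alone (0.0586) and after quantile normalisation (-0.10, 0.285). No other member was called lower in adult cells on both backgrounds.

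On Stra8, Prdm14 was 1.81-fold lower in adult than in ES cells (-0.86, adjusted p = 4.57e-08, limma), Tcl1 1.69-fold (-0.76, 1.04e-06), Zfp42 1.57-fold (-0.65, 0.00318) and Esrrb 1.38-fold (-0.47, 0.00031). Tbx3 (-0.13, adjusted p = 0.119) and Klf5 (0.11, 0.145) were not called there. On 129SV, Tbx3 was 1.68-fold lower (-0.75, adjusted p = 1.83e-08) and Klf5 1.61-fold (-0.69, 2.05e-08). Tcl1 was higher in adult cells on 129SV (0.28, adjusted p = 0.0052), and Prdm14 (0.11, 0.168) and Esrrb (-0.10, 0.347) were not called. Zfp42 was at 0.34 on 129SV (adjusted p = 0.0788), and was called in a fit of these 2 groups alone (adjusted p = 0.00244).

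The difference between the backgrounds was tested as the adult minus ES difference on Stra8 minus that on 129SV. 7 members passed, 3 with the higher value on Stra8 and 4 with the lower, where 43.1% of all genes were called, 21.3% as higher and 21.8% as lower. It was 0.80 for Klf5 (adjusted p = 2.27e-07, limma), 0.66 for Nr0b1 (1.98e-06) and 0.62 for Tbx3 (9.63e-06), 3 of the 4 members called lower in adult than in ES cells on 129SV. It was -1.03 for Tcl1 (4.67e-07), -0.99 for Zfp42 (0.00101), -0.96 for Prdm14 (1.2e-07) and -0.37 for Esrrb (0.0146), 4 of the 5 members called higher in ES Stra8 than in ES 129SV cells. Klf2, the fifth of these, did not pass (-0.09, 95% confidence interval -0.29 to 0.11). Klf4 did not pass either (-0.22, adjusted p = 0.0566), but did so with the replicate number as a block (0.0465). The calls on 129SV and between the ES groups share their arrays with this difference. Their overlaps with it are therefore the same data in another arrangement.

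**Figure D3:**
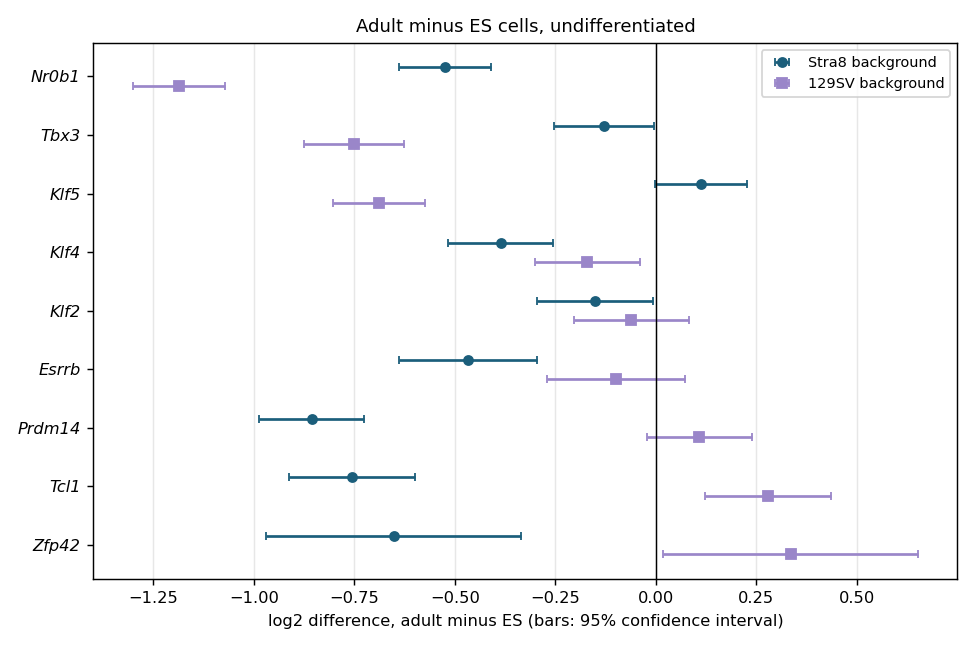
Log2 difference of each gene, adult minus ES cells, undifferentiated (horizontal axis), on the Stra8 background (circles) and on 129SV (squares), with 95% confidence intervals from limma. Nr0b1, Tbx3 and Klf5 at the top lie lower on 129SV, and Esrrb, Prdm14, Tcl1 and Zfp42 at the bottom lie lower on Stra8.

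Set background against background, ES Stra8 cells had 5 members higher and 0 lower than ES 129SV cells, where 41.4% of all genes were called, 21.3% as higher and 20% as lower. The median difference was 0.53 for the 9 and -0.01 for all genes. Tcl1 was 2.33-fold higher (1.22, adjusted p = 8.6e-10, limma), Esrrb 2.08-fold (1.06, 1.53e-08), Prdm14 1.62-fold (0.70, 8.15e-08), Zfp42 1.48-fold (0.56, 0.00573) and Klf2 1.45-fold (0.53, 6.09e-06). Nr0b1 (0.02, 95% confidence interval -0.10 to 0.13) and Tbx3 (-0.03, -0.15 to 0.10) did not pass. Klf4 (0.14, adjusted p = 0.0756) and Klf5 (0.13, 0.0765) did not pass, and were called when dim genes were left out (0.0439 and 0.0443).

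Adult Stra8 cells had 6 members higher and 2 lower than adult 129SV cells, where 51% of all genes were called, 24.2% as higher and 26.8% as lower. The median difference was 0.44 for the 9 and -0.08 for all genes. Klf5 was 1.9-fold higher (0.93, adjusted p = 6.22e-10, limma), Esrrb 1.61-fold (0.69, 1.92e-06), Nr0b1 1.6-fold (0.68, 2.01e-08), Tbx3 1.51-fold (0.60, 2.29e-07) and Klf2 1.36-fold (0.44, 3.46e-05). Esrrb and Klf2 were thus higher on Stra8 in cells of both origins, and so was Tcl1, by a weak call in adult cells given below. Prdm14 was lower (-0.27, adjusted p = 0.00162). Zfp42 was lower too (-0.43, adjusted p = 0.0249), a call lost without replicate 1 of adult Stra8 (0.0699) or replicate 1 (0.0679) or 3 (0.051) of adult 129SV. Tcl1 was higher by 0.19 (adjusted p = 0.0443), a call lost without replicate 1 (0.111), 2 (0.0589) or 3 (0.0984) of adult Stra8, without replicate 1 (0.159) or 2 (0.0595) of adult 129SV, and after quantile normalisation (0.13, adjusted p = 0.133). Over the 4 undifferentiated groups together, all 9 members varied by the moderated F test, where 64.1% of all genes did.

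Genes of the same pathways were counted from lists. Of all genes, 32.2% were called lower and 27.5% higher on differentiation in adult cells, and 27.3% and 27.9% in ES cells. Between adult and ES cells 15.1% were lower and 13.2% higher on Stra8, and 23.1% and 23% on 129SV. Medians over all genes were -0.08 in adult and 0.05 in ES cells on differentiation. They were -0.003 on Stra8 and 0.06 on 129SV between adult and ES cells. Of 29 measured genes that work with the members in the naive network, 26 were lower and 1 higher in differentiated than in undifferentiated adult cells (median -1.22), and 23 lower and 3 higher in ES cells (median -1.16). The falls were largest for the epiblast co-receptor Tdgf1 (-2.58 in adult and -4.19 in ES cells), the chromatin factor Utf1 (-2.37 and -3.59), Pou5f1 (-2.47 and -3.14) and the growth factor Fgf4 (-2.29 and -2.46). Sox2 was at -1.53 and -2.14, Nanog at -0.49 and -1.07, and Tfcp2l1, a LIF-responsive factor that works beside Esrrb, at -0.67 and -0.88, all called. Between undifferentiated adult and ES cells, 18 of the 29 were lower and 3 higher on Stra8 (median -0.22), and 6 lower and 9 higher on 129SV (median 0.01). The largest differences were those of the germline factor Tfap2c on Stra8 (-1.07, and 0.69 on 129SV) and of the maternal factor Dppa3 on 129SV (2.39, and -0.65 on Stra8), all called. Pou5f1 did not pass on either background (-0.02 and -0.04, adjusted p = 0.92 and 0.787), and Tfcp2l1 was lower on both (-0.18 and -0.66). Nanog and Sox2 were lower on Stra8 (-0.74 and -0.34). On 129SV neither passed (-0.10 and -0.18, adjusted p = 0.1145 and 0.186, limma).

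LIF pathway genes were counted in the same contrasts. Of all genes, 59.7% were called on differentiation in adult and 55.2% in ES cells. Between adult and ES cells 28.3% were called on Stra8 and 46.1% on 129SV. Of the 15 measured genes, 3 were lower and 9 higher in differentiated than in undifferentiated adult cells (median 0.20), and 4 lower and 4 higher in ES cells (median -0.08). The cytokine Il6 had the largest change in both, -3.20 in adult and -6.40 in ES cells. Lif, the ligand, was at 0.07 in adult cells (adjusted p = 0.432, limma) and fell in ES cells (-1.63). Lifr, the LIF receptor, was higher in the differentiated cells, by 2.73 in adult and 1.46 in ES cells. Stat3 rose in differentiated adult cells (0.74) and was at -0.08 in ES cells (adjusted p = 0.312, limma), and its feedback inhibitor Socs3 rose in both (1.19 in adult and 0.40 in ES cells). In adult Stra8 against ES Stra8 cells, 5 were higher and 6 lower (median -0.02). Il6 was at 1.46, Lif at 0.70, Jak2 at 0.63 and Stat3 at 0.18, and Tyk2 was at -0.42, Socs3 at -0.37 and Lifr at -0.28, all called. In adult 129SV against ES 129SV cells, 9 of the 15 were lower and 0 higher (median -0.43), among them Il6 (-3.33), the kinases Jak2 (-1.95) and Jak1 (-1.07), Lif itself (-1.17), Lifr (-0.85) and Stat3 (-0.50). Socs3 did not pass there (-0.005, adjusted p = 0.968, limma). Klf4 was lower in adult cells on both backgrounds (-0.39 on Stra8 and -0.17, a weak call, on 129SV), as given above, and Tbx3 on 129SV. The part of LIF signalling in these differences was not tested.

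Markers of other cells moved with the same contrasts. Of all genes, 59.7% were called on differentiation in adult and 55.2% in ES cells. Between adult and ES cells 28.3% were called on Stra8 and 46.1% on 129SV. Between backgrounds 41.4% were called in ES and 51% in adult cells. Of 23 measured fibroblast genes, all 23 were higher in adult Stra8 than in ES Stra8 cells (median 0.72), and 18 were lower and 2 higher in adult 129SV than in ES 129SV cells (median -0.59). In ES Stra8 against ES 129SV cells 21 were lower and 0 higher (median -0.99). On differentiation 17 were lower and 6 higher in adult cells (median -0.73), and 21 lower and 2 higher in ES cells (median -1.47). Their mean log2 signal ran from 9.48 to 9.52 over the differentiated adult arrays, 8.89 to 8.99 in differentiated ES, 10.44 to 10.49 in adult Stra8, 10.04 to 10.10 in adult 129SV, 9.70 to 9.74 in ES Stra8 and 10.81 to 10.86 in ES 129SV cells. ES 129SV cells thus had the most fibroblast signal of the 6 groups, and Esrrb, Tcl1, Prdm14, Zfp42 and Klf2 were lower there than in ES Stra8. Largest in that contrast were Postn (-2.21) and the collagens Col3a1 (-1.91), Col1a2 (-1.74) and Col5a2 (-1.62). In adult Stra8 against adult 129SV cells 11 fibroblast genes were higher and 6 lower (median 0.17). There 6 members were higher and 2 lower. No marker can be called absent, since the files give no detection call. The part of such cells in the members' differences was not tested.

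Krüppel-like factors are also active in epithelia, so epithelial and extraembryonic endoderm markers were counted too. Of all genes, 59.7% were called on differentiation in adult and 55.2% in ES cells, and 32.2% between the differentiated groups. Between adult and ES cells 28.3% were called on Stra8 and 46.1% on 129SV. Between backgrounds 41.4% were called in ES and 51% in adult cells. Of 19 measured epithelial genes, 8 were higher and 9 lower in differentiated than in undifferentiated adult cells (median 0.07), and 11 higher and 4 lower in ES cells (median 0.95). In differentiated adult against differentiated ES cells 0 were higher and 16 lower (median -0.61). Between undifferentiated adult and ES cells, 4 were higher and 8 lower on Stra8 (median -0.14), and 8 higher and 2 lower on 129SV (median 0.16). Of 20 measured genes of extraembryonic endoderm, 15 were higher and 2 lower in differentiated adult cells (median 2.98), and 18 higher and 1 lower in differentiated ES cells (median 1.81), each against its undifferentiated cells. The largest changes in adult cells were those of the endocytic receptor Cubn (5.07 in adult and 2.38 in ES cells), the laminin chain Lama1 (4.54 in adult and 3.68 in ES cells) and the endoderm factors Gata4 (4.40 and 3.32) and Gata6 (4.28 and 3.12). The endoderm markers also differed between undifferentiated groups. 15 were higher and 0 lower in adult Stra8 than in ES Stra8 cells (median 0.70), 0 higher and 13 lower in adult 129SV than in ES 129SV cells (median -0.48), and 0 higher and 13 lower in ES Stra8 than in ES 129SV cells (median -0.39). In adult Stra8 against adult 129SV cells 13 of these markers were higher and 2 lower (median 0.40). Their mean log2 signal ran from 10.35 to 10.38 over the differentiated adult arrays, 10.25 to 10.29 in differentiated ES, 8.60 to 8.63 in adult Stra8, 8.07 to 8.11 in adult 129SV, 7.88 to 7.92 in ES Stra8 and 8.61 to 8.64 in ES 129SV cells. Pdgfra stands in both the endoderm and the fibroblast list. The part of such cells in the members' differences between undifferentiated groups was not tested. Whether the Klf4 and Klf5 signal of the differentiated cultures came from such cells was not tested.

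**Figure D4:**
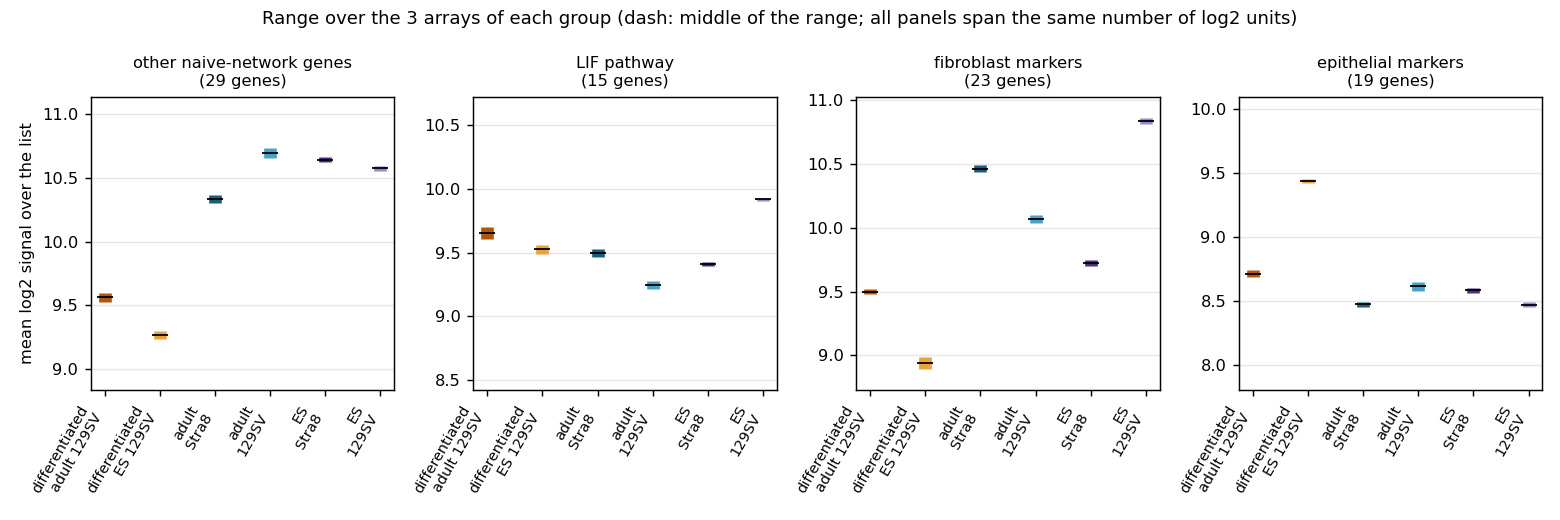
Mean log2 signal over 4 gene lists (vertical axis, the same span in each panel) by group along the horizontal axis. Boxes run from the lowest to the highest of 3 arrays and the dash marks the middle. The other naive-network genes are lowest in the 2 differentiated groups, while the fibroblast markers are highest in ES 129SV cells and the LIF pathway is lowest in adult 129SV cells.

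Among themselves, the members were set side by side after each was centred on its own mean over the 6 groups. The nearest pair was Tbx3 and Klf5, with a root mean square difference of 0.24 between their group profiles, and the next was Zfp42 and Klf2 (0.26). Klf2 lay 0.31 from Tcl1 and 0.36 from Esrrb, but 0.96 from Klf4 and 0.92 from Klf5, its own relatives, which lay 0.35 from each other. The widest distance was that of Nr0b1 to Klf4 (1.67). These are descriptions over 6 group means that share their arrays. Flat genes lie near each other on this scale.

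By the same measure, the 3 nearest of all other genes were named for the 6 members whose group means span at least 1. Nearest to Nr0b1 were Cth (0.22), a cysteine-forming enzyme, Tdgf1 (0.31) and Septin1 (0.35). Nearest to Esrrb were the glycine and serine enzymes Gldc (0.18) and Shmt2 (0.23), with Psma8 (0.22), a proteasome subunit of the testis. Nearest to Klf2 were H2ac4 (0.079), the chromatin remodeller Hells (0.11) and Dscc1 (0.15), a protein of chromosome cohesion. Nearest to Tcl1 were the ubiquitin ligase Rnf125 (0.19), the amino acid transporter Slc7a5 (0.21) and the repressor Rest (0.22), to Zfp42 H4c4 (0.11), Kbtbd8 (0.15) and Rimklb (0.16), and to Prdm14 D030056L22Rik (0.084), Acoxl (0.11) and the mitotic kinesin Kif2c (0.11). H4c4 and H2ac4 are histone genes with near-identical copies, so their signal may be shared with other genes. Nothing follows from nearness about shared control.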

How the data were processed

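The 18 arrays were grouped by the labels, with 3 replicates in each of 6 groups. Per the submitters' processing notes, the authors ran RMA in Affymetrix Expression Console, and the deposited log2 values are its output. Per the labels' protocols, each array took 300 ng of RNA. RMA corrects background, brings arrays to a shared distribution and compresses weak signals. The sources used here do not say whether the arrays were normalised in a single run. The values ran from 1.27 to 14.6, and were used as deposited. No detection call or scanner file was used here, so no level was set against background, and the number of arrays limits the precision.

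Of 35556 probe sets, 21789 had 1 gene symbol, 1621 several and 12146 none. For the 999 genes with several probe sets the one with the highest mean was taken, which left 19938 genes. limma 3.58.1 in R 4.3.3 (lmFit, eBayes) fitted a mean per group over the 18 arrays, with 12 residual and 3.78 prior degrees of freedom. Benjamini-Hochberg adjustment ran over the 19938 genes, separately for each comparison. Permuting 3 against 3 arrays cannot give a two-sided p below 0.1, so no exact permutation test was used. Promoters came from RefSeq (GRCm38.p6). Python 3.11.15 with pandas 2.3.3 and matplotlib 3.10.9 searched motifs and drew figures. On simulated data with known changes the fit was tested.

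The members and lists were chosen with earlier results of these data known. All 9 members are named. From the 12 lists (206 of 217 genes measured, members left out) up to 4 called genes with the largest change in a contrast are named, with their values in its counterpart, and 10 genes that define the lists. Same-numbered arrays of the 2 differentiated groups deviated together (correlations of 0.144 to 0.442 over all genes, each pair above 0.1). An alternative fit therefore took the numbers to pair them there, from the data and not from the labels. The main fit used no pairing. Differently numbered arrays had correlations of -0.373 to 0.307, and only 1 of 3 arrays correlated best with its own number, so this pairing is uncertain. In the other comparisons not every same-numbered pair was above 0.1. Alternatives were a replicate block, the compared groups alone, centred or quantile-normalised arrays, array weights, a filter on dim genes, other probe set rules, an intensity trend and each array left out. The block in a fit of the differentiated groups alone was chosen after seeing the data.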

Additional observations from a re-analysis of the deposited data

Results flagged for a closer look

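13 values were set aside because an effect differed between groups by the test of the difference itself (limma, adjusted p under 0.05). 7 concern origin, as the adult minus ES difference on Stra8 minus that on 129SV. They were -0.37 for Esrrb, -0.99 for Zfp42, -0.96 for Prdm14 and -1.03 for Tcl1, and 0.66 for Nr0b1, 0.62 for Tbx3 and 0.80 for Klf5. Across the same contrasts the fibroblast markers had medians of 0.72 on Stra8 and -0.59 on 129SV and the extraembryonic endoderm markers 0.70 and -0.48, and the part of either was not tested. The other 6 concern differentiation, as the change in adult minus the change in ES cells. They were 0.59 for Esrrb, 1.80 for Nr0b1, 0.48 for Tbx3, 0.96 for Klf2, 0.32 for Klf4 and 0.28 for Klf5. Both families use the ES 129SV and adult 129SV arrays, so they are not independent of each other.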

How the results depend on the processing

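The number of members called stayed within 1.5 times its value in every comparison and alternative run, and no member turned a called direction. With 1 array left out, the counts were 6 to 6 for adult against ES Stra8, 4 to 5 for adult against ES 129SV, 8 to 8 and 7 to 7 for differentiation of adult and of ES cells, 7 to 8 between the differentiated groups, 6 to 7 and 5 to 5 for Stra8 against 129SV in adult and in ES cells, and 7 to 8 and 6 to 7 for the differences in origin effect and in differentiation. Of single-gene values, 13 of those with an array left out lost their call and 4 gained one. Under the other alternatives 8 lost and 29 gained one, 8 of the 29 with array weights, whose estimate stopped short of its tolerance. With the compared groups alone in the fit, Prdm14 (0.21, adjusted p = 0.096) and Tbx3 (-0.27, adjusted p = 0.0524) lost theirs between the differentiated groups. The replicate block over all 18 arrays left 7 members called between the differentiated groups and changed 1 call elsewhere, that of Klf4 in the difference in origin effect (-0.22, adjusted p = 0.0465). Signals were set against no background level, so a small change of a dim gene may be understated.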

Other observations

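Of 15 measured relatives of the members, 2 were lower and 2 higher in differentiated than in undifferentiated adult cells (median 0.01), where 59.7% of all genes were called. In ES cells 3 were lower and 4 higher (median 0.21), where 55.2% of all genes were called. In adult cells the largest changes were those of Tcl1b2 (0.70) and Prdm4 (-0.52, and -0.37 in ES cells). Prdm1, a relative of Prdm14 known from germ cell specification, fell in both (-0.51 in adult and -2.30 in ES cells) and was lower in adult 129SV than in ES 129SV cells (-1.37). Of the 14 other Krüppel-like factors, 8 fell and 5 rose in differentiated adult cells (median -0.26), and 5 fell and 6 rose in differentiated ES cells (median -0.06). The same shares of all genes stand beside these counts. Klf12 fell in both (-1.63 in adult and -1.44 in ES cells), and Klf6 rose in both (1.57 in adult and 0.55 in ES cells).

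Of 17 measured genes of the primed, postimplantation epiblast, 13 were lower and 2 higher in differentiated than in undifferentiated adult cells (median -0.71), and 11 lower and 3 higher in ES cells (median -0.67). Of all genes, 59.7% were called on differentiation in adult and 55.2% in ES cells. Between the ES groups 41.4% were called, between adult and ES Stra8 28.3% and between adult and ES 129SV 46.1%. The keratin Krt18, which stands in the epithelial list too, rose by 2.29 in adult and 3.69 in ES cells. Lef1, a Wnt effector, was at -2.07 and -3.01. Otx2, a factor of the primed state, was at -1.67 in adult and -3.20 in ES cells, Dnmt3b, a de novo DNA methyltransferase, at -2.22 and -2.93, and Fgf5 at -0.74 and -0.66, all called. Among undifferentiated cells 12 of the 17 were lower and 2 higher in ES Stra8 than in ES 129SV (median -0.45), with Lef1 at -2.57 and Dnmt3b at -1.55. In adult Stra8 against ES Stra8 cells 9 were higher and 3 lower (median 0.28), with Dnmt3b at 1.44, Lef1 at 1.10 and Dnmt3a, another de novo methyltransferase, at 0.44. In adult 129SV against ES 129SV cells 4 were higher and 6 lower (median 0.12). Dnmt3a was at 1.18 and Krt18 at 0.93, and Nodal was at -0.76, Eomes at -0.73, Otx2 at -0.67 and Dnmt3b at -0.25.

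Other lists were counted for differentiated against undifferentiated cells. In adult cells 59.7% of all genes were called, 27.5% as higher and 32.2% as lower. In ES cells 55.2% were called, 27.9% as higher and 27.3% as lower. Of 14 trophectoderm genes 7 were higher and 4 lower in adult cells (median 0.18), and 9 higher and 2 lower in ES cells (median 0.41). Of 23 spermatogonial genes 8 were higher and 11 lower in adult cells (median -0.16), and 5 higher and 10 lower in ES cells (median 0.02). Of 13 blood genes 2 were higher and 9 lower in adult cells (median -0.41), and 2 higher and 6 lower in ES cells (median -0.22). Of 14 endothelial genes 7 were higher and 4 lower in adult cells (median 0.05), and 6 higher and 3 lower in ES cells (median 0.16).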
